A study of Mus musculus with 6 samples.

Results

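The 5′ flank of the mouse immunoglobulin heavy chain (Igh) locus is the stretch of chromosome 12 beyond the most distal V genes. Its contacts with the V array and with itself were taken from a 5C experiment that covered the whole locus. The flank was represented by 17 HindIII fragments between positions 117265258 and 117350186 (mm9), 8 with a forward and 9 with a reverse primer, and the V array by 141 fragments. A primer pair was included where 1 fragment's midpoint lay in the flank and the other's lay in the V array or the flank, which gave 1270 of the 12656 possible Igh pairs. By the position of the V fragment, 161 of these pairs joined the flank to the proximal V region (114809751 to 115096374), 433 to the middle V region (115139357 to 115709849), 366 to the near distal V region (115723372 to 116439886) and 238 to the far distal V region (116539430 to 117190694). The other 72 pairs joined flank fragments to each other. Libraries came from CD43- resting B cells isolated from spleen with magnetic beads and used without culture, from bone marrow pro-B cells of Rag2-deficient mice grown with IL7, and from mouse embryonic fibroblasts (MEF) taken from culture, and the series description calls the 2 libraries of each cell type biological replicates. Cell type, tissue, culture history and the Rag2 deficiency of the pro-B cells go together in this design and cannot be told apart. The 5C counts hold no expression values against which the labelled cell types could be checked.

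In 5C, primers are annealed next to the cut ends of ligated chromatin and joined where a forward and a reverse fragment were ligated, so that the reads of a primer pair count how often 2 fragments were recovered together. B lineage cells assemble an Igh gene by joining 1 V gene to a D-J unit, and the DNA between them is lost from that allele. Pro-B cells without Rag2 cannot start this reaction and keep the germline order, as fibroblasts do, while most resting B cells carry rearranged alleles. In pro-B cells the large V array folds so that distal V genes come near the D-J end. In the RefSeq gene order (assembly GRCm38.p6), Ighv1-86 is the last V gene, and Zfp386, Vipr2, Wdr60 and Esyt2 follow it on the flank side. No annotation of the mm9 build was used, so that fragments are given by primer name and position, not by V gene.

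Libraries held 20580457 to 24191175 valid read pairs. The 1270 pairs held 13.4% and 12.7% of the Igh reads in resting B, 7.51% and 7.18% in pro-B and 7.82% and 9.11% in MEF. The log2 counts of the 2 replicates over these pairs correlated with r = 0.891 in resting B, 0.625 in pro-B and 0.859 in MEF (a description across pairs, which share fragments), and in each cell type the replicates spread beyond counting error. The 2 pro-B libraries stood apart from each other, as 68 and 220 of the 1270 pairs had no read in replicate 1 and replicate 2 of pro-B. The resting B libraries had 64 and 58 such pairs and the MEF libraries 61 and 46. Pro-B replicate 2 also placed 77.2% of the flank's Igh reads within the flank, where the other 5 libraries placed 88.1% to 92.1%. Counts of called pairs and V fragments are also given without each pro-B library.

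Contacts were far more frequent inside the flank than with any V region. Levels are given as normalised CPM, the reads of a pair scaled to the tested cis reads of its library and to its TMM factor, which centres the libraries on the bulk of their pairs. Pairs within the flank, 2.10 to 79.2 kb apart, had a median of 98.9 and 88.7 CPM in resting B, 78.5 and 48.8 CPM in pro-B and 89.2 and 71.7 CPM in MEF. With the far distal V region, 76.6 to 805 kb away, the median pair had 3.69 and 3.26 CPM in resting B, 2.71 and 3.21 CPM in pro-B and 2.89 and 3.54 CPM in MEF. The near distal region, 828 to 1624 kb away, had medians of 2.10 and 2.29 CPM in resting B, 1.48 and 1.21 CPM in pro-B and 1.81 and 1.77 CPM in MEF. The middle region, 1563 to 2206 kb away, had lower medians still, at 1.47 and 1.81 CPM in resting B, 1.03 and 0.935 CPM in pro-B and 1.29 and 1.35 CPM in MEF. The proximal region lies farthest, 2174 to 2529 kb from the flank, and its medians of 1.59 and 2.31 CPM in resting B, 1.26 and 1.23 CPM in pro-B and 1.75 and 1.97 CPM in MEF were above those of the middle region in all 6 libraries, replicate by replicate. Of the 1270 pairs, 1172 had at least 10 reads in at least 2 libraries and were tested, and 4 had no read in any library.

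Summed over whole regions, the flank's contacts passed the test in no comparison of cell types. With the near distal V region the sum was 1914 and 2289 CPM in resting B, 1496 and 2500 CPM in pro-B and 1477 and 1241 CPM in MEF. The resting B libraries lay above both MEF libraries and inside the range of the pro-B libraries. The log2 fold of resting B over MEF was 0.63 ± 0.30 (SE, n = 2 each; edgeR adjusted p = 0.105). With the far distal region the sum was 1926 and 1889 CPM in resting B, 1741 and 1480 CPM in pro-B and 1344 and 1505 CPM in MEF, again with resting B cells above MEF without overlap (0.42 ± 0.24, edgeR adjusted p = 0.152). With the middle region resting B cells had 1405 and 1640 CPM, pro-B cells 832 and 2057 CPM and MEF 1025 and 997 CPM. With the proximal region resting B cells had 2029 and 2599 CPM, pro-B cells 1763 and 6035 CPM and MEF 3120 and 1884 CPM, so that all 3 groups overlapped. None of the 15 tests of these sums (5 regions in 3 comparisons) passed a threshold of 0.05. Over all 55 pairs of regions in the locus, 32.7% were called higher and 16.4% lower in resting B over MEF, 20% and 21.8% in resting B over pro-B, and 9.09% and 0% in pro-B over MEF. Under DESeq2 the near and far distal sums passed in resting B over MEF, at log2 folds of 0.70 and 0.49.

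Single pairs had small median folds. Over the 1172 tested pairs the median log2 fold was 0.29 in resting B over MEF, against -0.02 over all 11940 tested Igh pairs. It was 0.23 in resting B over pro-B, against 0.01 over all Igh pairs, and 0.01 in pro-B over MEF, against 0.03. At matched separation the medians of the flank and of the other Igh pairs lay apart in some ranges and close in others, which is given as a description. Between 500 and 1000 kb the median for resting B over MEF was 0.38 over 168 pairs of the flank and -0.43 over the 2441 other pairs, while beyond 2000 kb it was 0.29 over 214 pairs of the flank and 0.79 over the 844 others. Between 1000 and 1500 kb the medians were 0.21 over 202 pairs of the flank and 0.17 over the 2231 others, and between 1500 and 2000 kb they were 0.33 over 395 and 0.29 over 1058. The V-to-flank medians by region in resting B over MEF were 0.20 for proximal, 0.27 for middle, 0.30 for near distal and 0.27 for far distal V. These values depend on the scaling: with the total cis reads as library size the median of all Igh pairs moved by 0.23 in resting B over MEF and by 0.27 over pro-B, and the median of the flank's pairs became 0.51 over MEF and 0.48 over pro-B.

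The cell types differed in which end of the flank made the contacts. When the 17 fragments were split at their middle, a split made after the values were seen and therefore described without a test, the 8 fragments on the V side (REV 810 to FOR 828, called inner) and the 9 on the far side (REV 831 to REV 851, called outer) gave medians of opposite sign. The outer fragments held 65.6% and 67.1% of the flank's reads with the V array in resting B, 32.9% and 42.3% in pro-B and 40.8% and 47.8% in MEF. Both resting B libraries lay above the 4 others, and pro-B overlapped MEF. With 2 libraries against 2, an exact permutation test cannot give a p below 0.333. Since each value is a share within 1 library, it does not depend on the scaling.

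The same split was seen in each of the 4 V regions. With the far distal V region the outer share was 70.6% and 71.3% in resting B, 33.4% and 52.6% in pro-B and 56.6% and 53.4% in MEF. With the near distal region it was 75.7% and 75.9% in resting B, 36.9% and 59.3% in pro-B and 54.0% and 58.6% in MEF. With the middle region it was 75.6% and 75.5% in resting B, 45.3% and 62.0% in pro-B and 60.7% and 57.2% in MEF. In these 3 regions pro-B replicate 1 was the lowest library and pro-B replicate 2 lay near MEF. With the proximal region the outer share was lower throughout, at 44.5% and 50.9% in resting B, 23.3% and 26.0% in pro-B and 21.3% and 31.3% in MEF. A single pair with an inner fragment, FOR 165 with REV 819, held many of the proximal reads. Without it the outer share of all flank-to-V reads was 72.4% and 73.9% in resting B, 37.8% and 58.5% in pro-B and 54.1% and 54.6% in MEF, with the resting B libraries still on top.

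**Figure D1:**
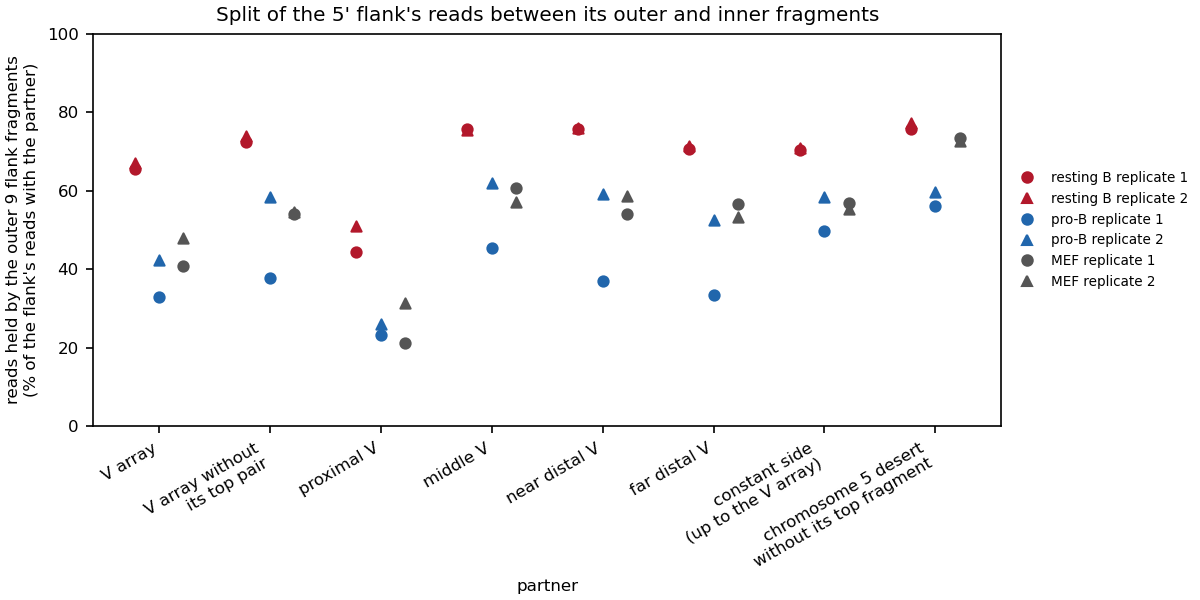
Share of the 5′ flank's reads held by its outer 9 fragments (percent, y axis) for each partner region (x axis), with 1 point per library, resting B cells left, pro-B cells in the middle and MEF right. The resting B libraries are highest with every V region, and with the chromosome 5 gene desert the MEF libraries come close to them.

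A higher outer share in resting B was also seen with other partners. With the part of the locus between the V array and the 3′ end (the constant side) the outer share was 70.4% and 71.0% in resting B, 49.9% and 58.3% in pro-B and 56.8% and 55.3% in MEF. Reads between the flank and a gene desert on chromosome 5, which lies on another chromosome, serve as a measure of how often a fragment was recovered at all. Among these the outer share was 75.7% and 77.3% in resting B, 56.0% and 59.6% in pro-B and 73.4% and 72.6% in MEF, leaving out FOR 817, whose desert reads nearly all came from 1 desert primer. The resting B libraries were the highest here too, with MEF close below them and pro-B lowest. The part that recovery of the fragments has in the V contacts was not tested.

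Fold changes of the single pairs showed the split on the log2 scale. The median in resting B over MEF was -0.33 over 497 tested pairs of inner fragments with V and 0.75 over 603 pairs of outer fragments. In resting B over pro-B it was -0.71 for inner and 0.84 for outer fragments, and in pro-B over MEF 0.28 for inner and -0.22 for outer fragments. The distance between outer and inner medians was 1.08 in resting B over MEF. It was 1.09 and 1.10 with the total cis reads or the reads of pairs within the gene desert as library size. A change of library size shifts all pairs by nearly the same amount. The distance could therefore hardly move, and its stability is no check of the split. With the reads within the desert the inner median itself turned to 0.10. Those are reads of desert pairs on chromosome 5, not the flank's reads with the desert, and do not correct for fragment recovery.

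Fragment by fragment, the order along the flank was uneven. Summed over the V array, the reads of 10 of the 17 flank fragments were higher in both resting B libraries than in both MEF libraries, 4 were lower and 3 overlapped. Over all 225 Igh fragments, 24.9% were higher and 67.6% lower by that rule. Over pro-B, 5 fragments were higher in resting B, 5 lower and 7 overlapped, where 18.2% of all Igh fragments were higher and 63.1% lower. In pro-B over MEF, 3 were higher, 0 lower and 14 overlapped, where 24.9% were higher and 11.1% lower. FOR 820 (117292549 to 117295273), an inner fragment, had the lowest median log2 fold in resting B, with sums of 29.6 and 25.8 CPM in resting B, 148 and 191 CPM in pro-B and 55.9 and 80.9 CPM in MEF. That median over V partners was -1.75 in resting B over MEF and -2.68 over pro-B. The innermost fragment, REV 810 (117265258 to 117268163), had 403 and 408 CPM in resting B, 1370 and 944 CPM in pro-B and 584 and 628 CPM in MEF, and here the 3 groups were fully separate. REV 827 (117300582 to 117303408) was also lower in resting B, with 121 and 116 CPM, against 191 and 518 CPM in pro-B and 302 and 148 CPM in MEF.

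On the outer side, REV 834 (117315157 to 117317137) had the highest median, 1.29 in resting B over MEF and 2.02 over pro-B, with sums of 184 and 232 CPM in resting B, 68.4 and 149 CPM in pro-B and 101 and 102 CPM in MEF. REV 831 (117305833 to 117307899), the first outer fragment, had 570 and 563 CPM in resting B, 145 and 510 CPM in pro-B and 250 and 257 CPM in MEF. The outermost fragment, REV 851 (117346620 to 117350186), had 992 and 1230 CPM in resting B, 360 and 827 CPM in pro-B and 591 and 520 CPM in MEF, with a median of 1.62 in resting B over pro-B. In all 3 the resting B libraries lay above the other 4. FOR 832 (117307900 to 117314249) ran against its outer neighbours. It had 118 and 113 CPM in resting B, 187 and 181 CPM in pro-B and 126 and 155 CPM in MEF. As a forward fragment it was summed over reverse V fragments, while REV 831 and REV 834 beside it were summed over forward ones. Among inner fragments, FOR 825 (117298879 to 117300183) had the highest median over MEF, 0.32, with 180 and 200 CPM in resting B, 97.8 and 230 CPM in pro-B and 134 and 121 CPM in MEF. REV 819 (117289594 to 117292548), FOR 828 (117303409 to 117304780), FOR 817 (117278387 to 117288604) and REV 821 (117295274 to 117298106) had medians of 0.29, 0.01, -0.44 and -0.38 in resting B over MEF. The outer FOR 837 (117317889 to 117319542), REV 840 (117320324 to 117324621), FOR 842 (117325410 to 117328516), REV 845 (117334454 to 117337990) and FOR 850 (117345114 to 117346619) had medians of 0.64, 0.95, 0.76, 0.39 and 0.94.

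**Figure D2:**
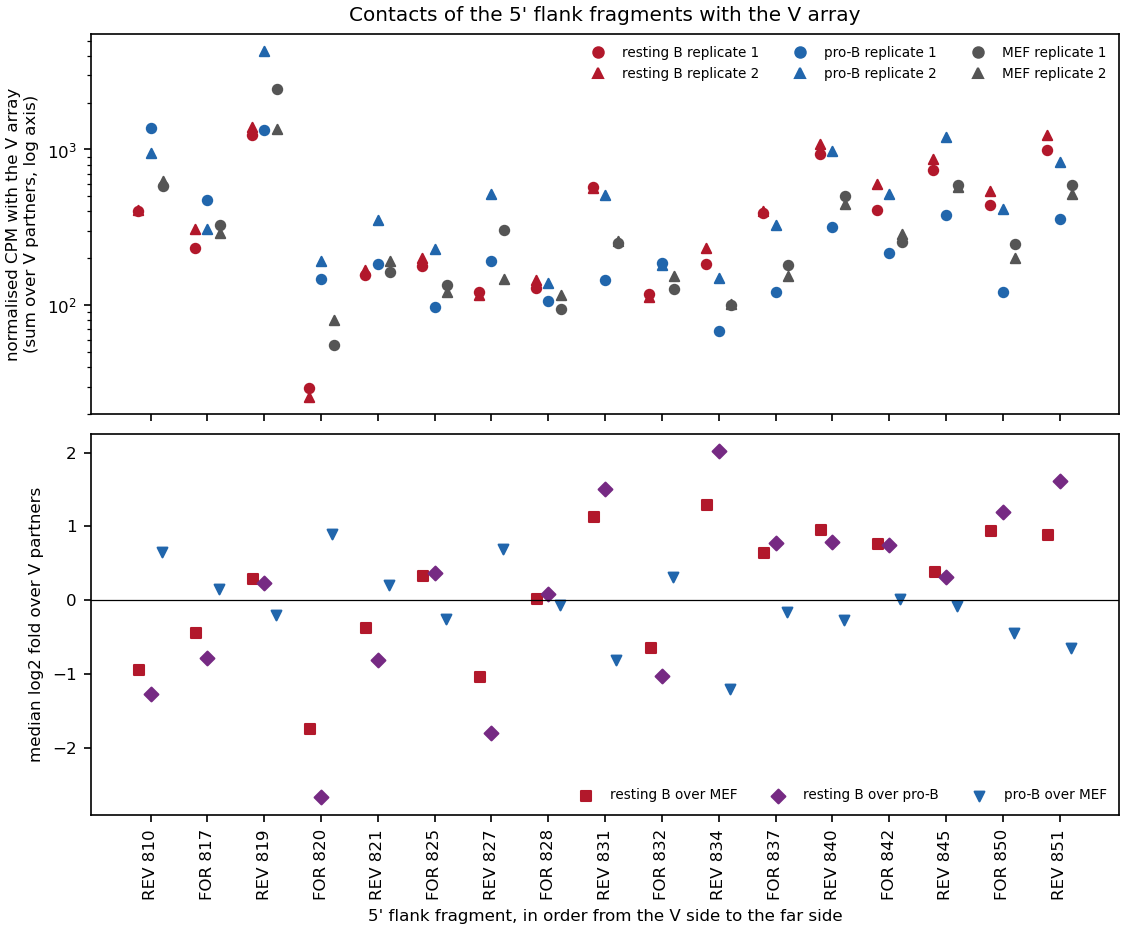
Top, summed normalised CPM of each of the 17 flank fragments with the V array (log axis) in each library, with flank fragments in order from the V side (left) to the far side (right). Bottom, median log2 fold over each fragment's V partners for the 3 comparisons; FOR 820 has the lowest medians for resting B cells and REV 834 the highest.

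The fragments' reads with the gene desert, scaled with TMM factors of their own, moved partly in the same direction. In resting B over MEF, 13 of the 17 flank fragments had the same sign in the desert reads as in the V median, and none passed the test on desert reads (edgeR, smallest adjusted p = 0.247). Over pro-B, 13 of 17 had the same sign and 2 passed, REV 831 with a log2 fold of 1.82 ± 0.47 (edgeR adjusted p = 0.029) and REV 834 with 1.85 ± 0.51 (edgeR adjusted p = 0.035). FOR 820, with the lowest V median, had 95 and 157 desert reads in resting B, 22 and 201 in pro-B and 44 and 22 in MEF. Its desert log2 fold in resting B over MEF was 0.65 ± 0.66, opposite to its fold with V partners.

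Contacts inside the flank also lay more on the outer side in resting B. Pairs of 2 inner fragments held 8.79% and 8.21% of the reads within the flank in resting B, 48.8% and 37.7% in pro-B and 31.2% and 28.6% in MEF. Pairs of 2 outer fragments held 87.0% and 88.2% in resting B, 47.4% and 59.1% in pro-B and 64.2% and 66.8% in MEF. The 3 cell types did not overlap in the inner share, which was lowest in resting B. Pairs of touching fragments, which share a HindIII site, held many of these reads. Without the 5 touching pairs the inner share was 7.59% and 7.01% in resting B, 29.3% and 17.5% in pro-B and 17.0% and 15.9% in MEF, so that resting B cells were still apart while pro-B replicate 2 came close to MEF.

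The touching pair FOR 850 with REV 851, at the far end of the flank, alone had 1074205 and 1036286 reads in resting B, 200976 and 182879 in pro-B and 315684 and 414266 in MEF. That was 45.2% and 46.4% of the reads within the flank in resting B, 13.9% and 15.1% in pro-B and 19.6% and 23.4% in MEF. It rose in resting B over pro-B by a log2 fold of 2.27 ± 0.50 (edgeR adjusted p = 0.042), while over MEF the log2 fold of 1.47 ± 0.49 did not pass (edgeR adjusted p = 0.159). At the inner end, the touching pair FOR 820 with REV 821 had 2123 and 1731 reads in resting B, 123583 and 61557 in pro-B and 40206 and 44093 in MEF. It fell in resting B by a log2 fold of -4.55 ± 0.62 against MEF (edgeR adjusted p = 0.044) and of -5.84 ± 0.66 against pro-B (edgeR adjusted p = 0.019). The second was -4.96 without pro-B replicate 1 and -6.39 without pro-B replicate 2. FOR 820 with its other neighbour, REV 819, had 27625 and 25711 reads in resting B, 129530 and 73821 in pro-B and 95705 and 105215 in MEF, which gave -2.01 ± 0.53 against MEF (edgeR adjusted p = 0.104). FOR 828 with REV 827 had 92569 and 82509 reads in resting B, 266121 and 202794 in pro-B and 218179 and 206745 in MEF, at -1.40 ± 0.51 against MEF (edgeR adjusted p = 0.183).

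Median folds of pairs within the flank were higher in resting B at longer separations. For the 11 pairs up to 5 kb apart the median log2 fold in resting B over MEF was -0.74, with 3 above 0. For the 23 pairs 5 to 20 kb apart it was -0.10, with 10 above 0. For the 31 pairs 20 to 50 kb apart it was 0.67, with 26 above 0, and for the 7 pairs over 50 kb apart it was 1.41, with 6 above 0. The longest class had median levels of 53.8 and 52.3 CPM in resting B, 38.1 and 24.5 CPM in pro-B and 25.7 and 25.8 CPM in MEF, with no overlap between resting B cells and either other group. The medians of these classes in resting B over pro-B were -0.72, 0.26, 0.83 and 1.34, in order of separation. Separation goes together with the split of the flank, as all pairs over 50 kb apart joined an inner to an outer fragment. The 5 touching pairs were all in the shortest class. The part of separation itself was not tested. FOR 850 with REV 819, 54.8 kb apart and chosen as an example after its values were seen, had 1004 and 957 reads in resting B, 152 and 160 in pro-B and 234 and 437 in MEF. It rose in resting B over pro-B (2.48 ± 0.45, edgeR adjusted p = 0.031). The summed reads within the flank, at 99596 and 103341 CPM in resting B, 82383 and 51349 CPM in pro-B and 93976 and 64725 CPM in MEF, did not pass in any comparison. Their log2 fold in resting B over MEF was 0.35 ± 0.42 (edgeR adjusted p = 0.485), and without FOR 850 with REV 851 it was -0.19. It was 0.64 with the total cis reads and 0.89 with the reads within the desert as library size, and both passed the test.

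**Figure D3:**
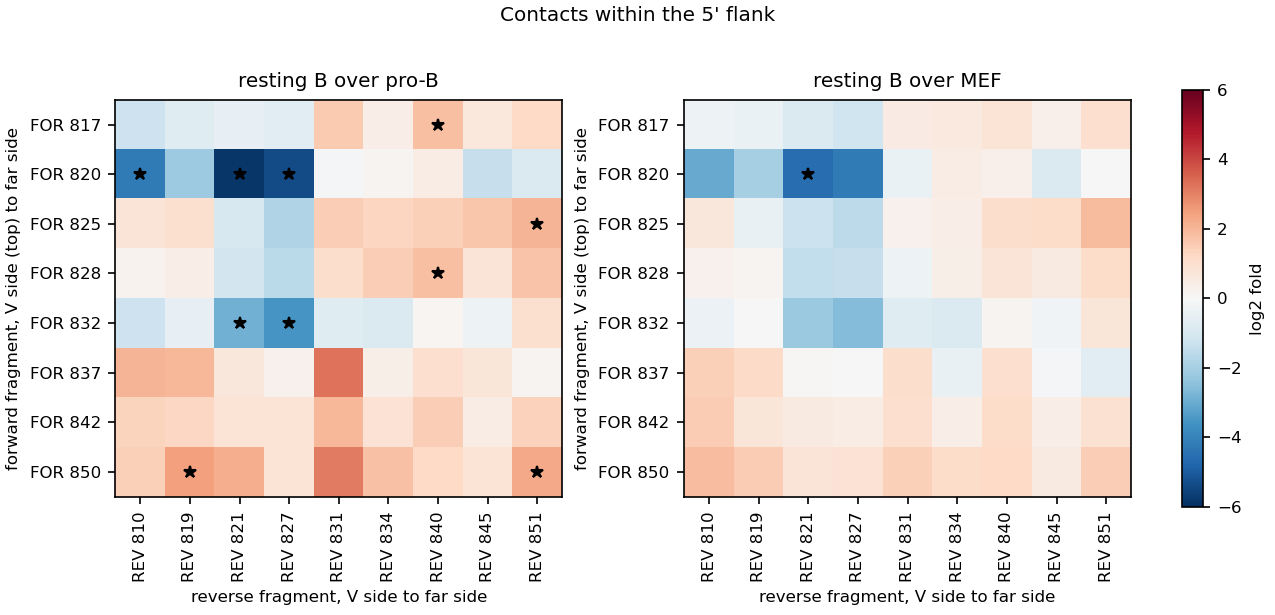
Log2 fold of each of the 72 primer pairs within the 5′ flank in resting B over pro-B (left panel) and over MEF (right panel), with forward fragments down and reverse fragments across, both from the V side to the far side; a star marks an edgeR adjusted p under 0.05. Blue cells (lower in resting B) gather around FOR 820, REV 821 and REV 827, and of the 36 cells that join the inner to the outer side, 29 over pro-B and 28 over MEF are above 0.

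Along the V array, flank contacts were concentrated on few fragments. The 10 V fragments with the most flank reads held 54.1% of the normalised flank-to-V counts, and FOR 165 and FOR 126, both in the proximal V region, held 17.5% and 15.2%. FOR 126 (114823610 to 114829182) spread its reads over the flank and ranked 1 of the V fragments also in desert reads, the measure of recovery. It had 949 and 1292 CPM with the flank in resting B, 727 and 2203 CPM in pro-B and 1052 and 802 CPM in MEF. In the far distal region FOR 671 (116768031 to 116772149) led with 535 and 489 CPM in resting B, 547 and 327 CPM in pro-B and 356 and 378 CPM in MEF. By the mean over the 6 libraries REV 545 (116342486 to 116353413) came first in the near distal region, with 239 and 353 CPM in resting B, 172 and 511 CPM in pro-B and 186 and 123 CPM in MEF, and it ranked 2 in desert reads. FOR 556 was above it in pro-B replicate 1 and MEF replicate 2, and FOR 399 in pro-B replicate 2. Among the 10, FOR 671, FOR 399, FOR 233 and FOR 272 also ranked high in desert reads, at 7, 3, 4 and 5. FOR 165, FOR 556, FOR 792 and REV 768 ranked 105, 75, 33 and 29. The part of recovery in this concentration was not tested. The median V fragment had 22.5 and 26.3 CPM with the flank in resting B, 15.7 and 28.6 CPM in pro-B and 17.6 and 19.0 CPM in MEF.

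Of 140 V fragments tested for their summed reads with the flank, none passed in resting B over MEF or in pro-B over MEF with edgeR, as for all Igh fragments (0%). At an unadjusted p under 0.05, 11 were higher and 2 lower in resting B over MEF, and 5 higher and 0 lower in pro-B over MEF. By that rule 21.4% of all 224 tested Igh fragments were higher and 3.57% lower in resting B over MEF, and 2.23% and 4.02% in pro-B over MEF. The absence of calls depended on the pro-B libraries. In resting B over MEF 38 V fragments were higher and 6 lower in the edgeR fit without pro-B replicate 1 (38.8% and 6.25% of all Igh fragments), and 39 and 6 without pro-B replicate 2 (39.3% and 6.25%). In pro-B over MEF 36 were higher and 5 lower without pro-B replicate 1 (20.5% and 5.36% of all Igh fragments), and 4 and 9 without pro-B replicate 2 (3.12% and 19.2%). In resting B over pro-B 7 rose and 3 fell, where 14.3% and 2.68% of all 224 tested Igh fragments did (adjusted p from edgeR). DESeq2 called 14 and 6 there, where it called 24.1% and 4.46% of all Igh fragments, and 4 and 0 in resting B over MEF, where it called 9.82% and 1.34%. In the middle V region, FOR 346 (115628291 to 115630212) had 86.8 and 108 CPM in resting B, 18.8 and 26.1 CPM in pro-B and 23.9 and 41.2 CPM in MEF, a log2 fold of 2.12 ± 0.48 over pro-B (edgeR adjusted p = 0.016). Its neighbour FOR 344 (115621851 to 115623605) had 24.3 and 20.3 CPM in resting B, 6.96 and 7.60 CPM in pro-B and 10.3 and 13.1 CPM in MEF (1.61 ± 0.45, edgeR adjusted p = 0.031). REV 345 (115623606 to 115628290), which lies between these 2 and touches both, fell. It had 1.80 and 2.31 CPM in resting B, 7.48 and 10.7 CPM in pro-B and 5.55 and 5.40 CPM in MEF (-2.14 ± 0.57, edgeR adjusted p = 0.026). As a reverse fragment it was summed over the 8 forward flank fragments, while FOR 344 and FOR 346 were summed over the 9 reverse ones. With no flank partner in common, its direction cannot be set against theirs.

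In the near distal region, REV 499 (116166285 to 116168748) had 120 and 159 CPM in resting B, 39.9 and 42.0 CPM in pro-B and 40.0 and 36.6 CPM in MEF (1.77 ± 0.43 over pro-B, edgeR adjusted p = 0.018), with 47.5% of its flank reads in its pair with FOR 850. FOR 415 (115816276 to 115822016) rose by 1.80 ± 0.44 (edgeR adjusted p = 0.018), with 86.0 and 107 CPM in resting B, 30.9 and 24.7 CPM in pro-B and 41.2 and 53.0 CPM in MEF. REV 428 (115848051 to 115855284) fell, with 3.39 and 4.54 CPM in resting B, 15.2 and 13.9 CPM in pro-B and 7.07 and 5.44 CPM in MEF (-1.88 ± 0.50, edgeR adjusted p = 0.026). It was the only 1 of the 10 whose desert reads also passed (-2.51 ± 0.49, edgeR adjusted p = 0.0061), which is a lower recovery in trans in resting B.

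The far distal region held FOR 685 (116809861 to 116811073) with 72.0 and 95.6 CPM in resting B, 21.9 and 25.9 CPM in pro-B and 27.5 and 32.1 CPM in MEF (1.81 ± 0.43 over pro-B, edgeR adjusted p = 0.017). FOR 611 (116559256 to 116561326) had 121 and 118 CPM in resting B, 50.6 and 37.5 CPM in pro-B and 66.9 and 64.2 CPM in MEF (1.44 ± 0.43, edgeR adjusted p = 0.043). FOR 702 (116864979 to 116868374) fell, with 10.6 and 7.78 CPM in resting B, 25.1 and 29.4 CPM in pro-B and 14.1 and 20.4 CPM in MEF (-1.57 ± 0.45, edgeR adjusted p = 0.039). In these fragments the resting B libraries lay outside the range of both other cell types. No fragment of the proximal V region passed. The 7 risen fragments lay from 455 to 1643 kb from the flank, among many that did not pass. Over all 140 V fragments the median log2 fold was 0.39 in resting B over MEF, with 104 above 0. Their reads with the desert had a median of -0.16. Desert reads had a scaling of their own, so that these medians cannot be set against each other. These calls depend on the libraries and the scaling: without MEF replicate 1 they were 3 higher and 0 lower (11.2% and 1.34% of all Igh fragments), and without MEF replicate 2 or either resting B replicate there were none. Without pro-B replicate 1 they were 19 higher and 33 lower (26.8% and 18.3% of all Igh fragments). Leaving out pro-B replicate 2 instead gave 47 higher and 11 lower (46% and 8.48%). With the reads of pairs within the desert as library size there were none.

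**Figure D4:**
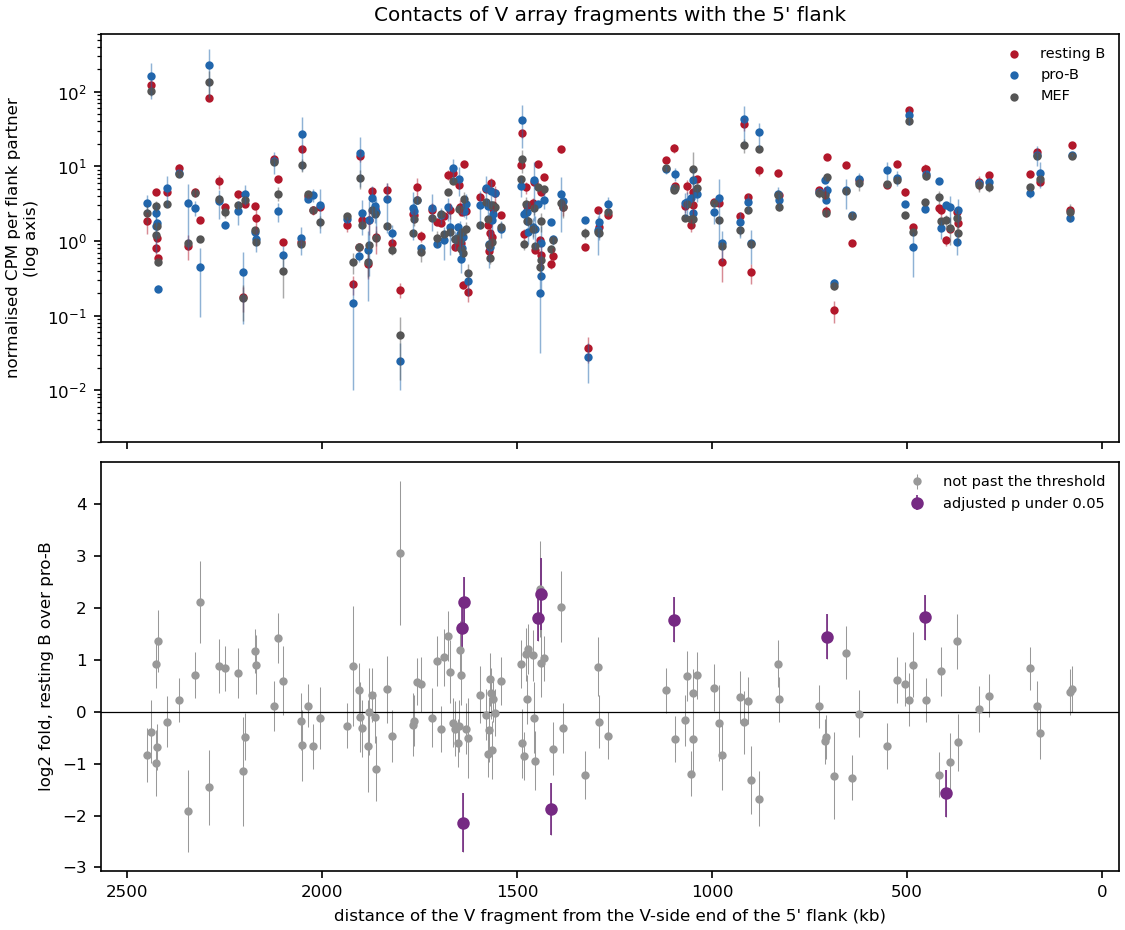
Top, normalised CPM per flank partner of each V array fragment (log axis) against its distance from the V-side end of the flank in kb, with the mean of 2 libraries as a point and their range as a line (a library with no read is drawn at 0.01 in the range, and a cell type with no read in both is not drawn). Bottom, log2 fold of resting B over pro-B with its SE for the summed flank reads of each tested fragment; the 7 risen and 3 fallen fragments are scattered between 399 and 1643 kb.

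In the fit of all 6 libraries, single primer pairs were called most often in resting B over pro-B. There 22 of the 1172 tested pairs rose and 13 fell, 1.88% and 1.11%, where 2.74% and 5.16% of all tested Igh pairs did. The 22 risen pairs were spread over 12 flank fragments, with 2 in the proximal, 2 in the middle, 9 in the near distal and 4 in the far distal V region and 5 within the flank, and 6 of the 17 joined to V held REV 851, the outermost fragment. The 13 fallen pairs held 5 flank fragments, all of them inner but FOR 832, and 5 of the 8 joined to V held REV 810, the innermost fragment. DESeq2 called 121 higher and 73 lower, where it called 10.9% and 13.4% of all Igh pairs. In 20 of the 22 and in 13 of the 13 the mean of MEF lay between those of the other cell types. Since the pairs were chosen for a difference between resting B and pro-B, such a place of MEF is likely. It gives no order of the cell types. Of the 22, 8 had under 5 reads in both pro-B libraries.

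The pair with the smallest p among those that rose was FOR 837 with REV 435 (115877939 to 115880010), a near distal V fragment 1439.7 kb away. It had 1938 and 1882 reads in resting B, 26 and 46 in pro-B and 37 and 26 in MEF, a log2 fold of 5.61 ± 0.61 over pro-B (edgeR adjusted p = 0.019). FOR 850 with REV 499, 1178 kb apart, had 1805 and 2289 reads in resting B, 97 and 186 in pro-B and 122 and 152 in MEF (3.75 ± 0.48, edgeR adjusted p = 0.020). In both pairs the resting B libraries stood far above the 4 others, which overlapped. Pairs with few reads in at least 1 pro-B library followed. FOR 685 with REV 840 had 248 and 324 reads in resting B, 6 and 1 in pro-B and 77 and 89 in MEF (6.06 ± 1.16, edgeR adjusted p = 0.032), and FOR 423 with REV 831 had 832 and 520 reads in resting B, 34 and 3 in pro-B and 226 and 223 in MEF (4.85 ± 1.16, edgeR adjusted p = 0.0495). FOR 842 with REV 571 had 364 and 486 reads in resting B, 23 and 5 in pro-B and 99 and 210 in MEF (4.64 ± 0.99, edgeR adjusted p = 0.039). The size of these 3 folds depended on the pro-B libraries, and all 3 passed without either one. Without pro-B replicate 1 they were 8.03, 7.78 and 6.42 in the order given. Leaving out pro-B replicate 2 instead gave 5.18, 3.91 and 3.83. The 1 read of FOR 685 with REV 840 in pro-B replicate 2 gives a log2 ratio of 8.21 (95% exact counting interval 5.73 to 13.5). The 3 reads of FOR 423 with REV 831 in that library give 7.87 (6.32 to 10.1). Both intervals pool the 2 resting B libraries and cover counting error only, not the spread between the pro-B libraries.

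Other risen pairs with far V fragments were at the edge of detection in pro-B. FOR 204 (115139357 to 115145663, middle V) with REV 834 had 131 and 163 reads in resting B, 1 and 2 in pro-B and 81 and 49 in MEF, and FOR 158 (114938327 to 114939720, proximal V) with REV 851 had 198 and 94 reads in resting B, 3 and 3 in pro-B and 84 and 203 in MEF. Against pro-B replicate 2 the log2 ratio of the pooled resting B reads was 6.25 (95% exact counting interval 4.38 to 9.30) for the first. For the second it was 5.66 (4.09 to 7.94), again with counting error only. In the second of these MEF overlapped resting B, and in both the pro-B libraries were apart. FOR 825 with REV 410 had 102 and 63 reads in resting B, none in either pro-B library and 19 and 39 in MEF. With 3 reads as the limit of each empty library, the mean of resting B was 24.1-fold the mean limit of pro-B. That bound holds for the means and not for each library.

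Among the fallen pairs, FOR 556 with REV 810 joined the innermost flank fragment to the near distal V region (FOR 556, 116385510 to 116386658). It had 135 and 91 reads in resting B, 4381 and 1637 in pro-B and 707 and 1393 in MEF, a log2 fold of -5.01 ± 0.71 against pro-B (edgeR adjusted p = 0.021), which was -3.83 without pro-B replicate 1 and -5.67 without pro-B replicate 2. Against MEF the log2 fold was -3.22 ± 0.65 and did not pass (edgeR adjusted p = 0.063). In pro-B replicate 1 this pair alone made up 16.7% of all reads between the flank and the near distal region, but 2.78% in pro-B replicate 2. FOR 556 was also recovered less often with the gene desert in resting B, at a log2 fold of -2.10 ± 0.49 against pro-B (edgeR adjusted p = 0.015), and its part in this result was not tested. FOR 832 with REV 827, 9.08 kb apart inside the flank, had 566 and 563 reads in resting B, 8463 and 2322 in pro-B and 2452 and 4255 in MEF (-3.55 ± 0.73 against pro-B, edgeR adjusted p = 0.036). Its log2 fold was -2.00 without pro-B replicate 1 and -4.29 without pro-B replicate 2. In both pairs the resting B libraries lay below the 4 others, and in the second pro-B overlapped MEF.

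**Figure D5:**
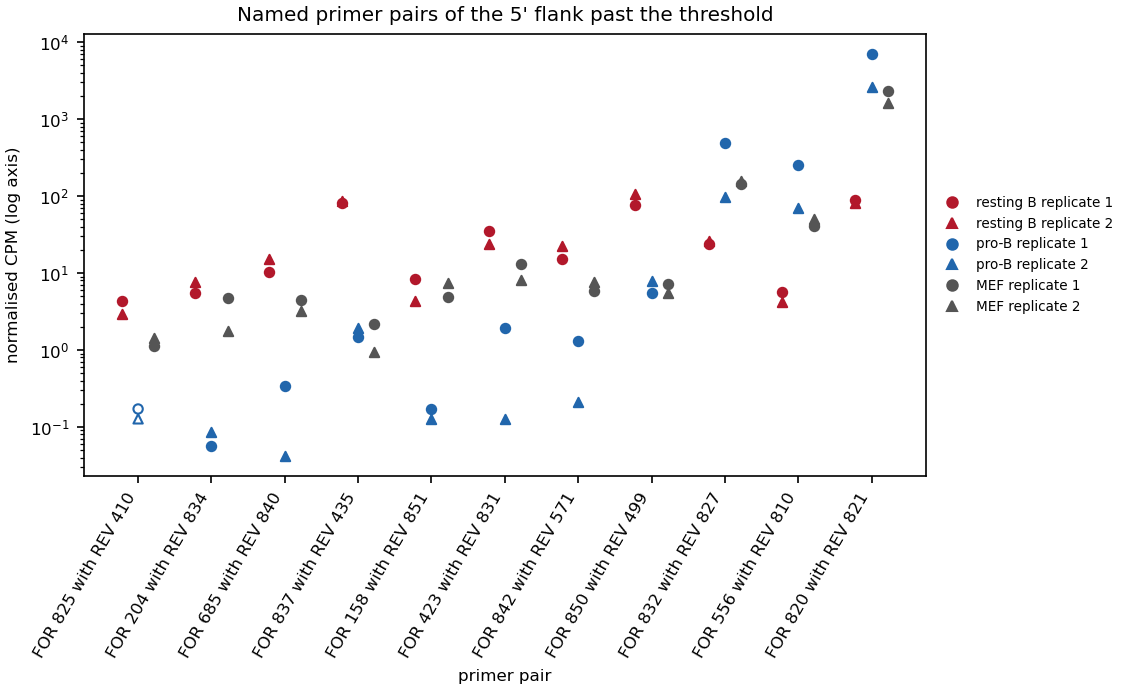
Normalised CPM (log axis) of 11 primer pairs of the flank that passed the threshold in resting B over pro-B or over MEF, with 1 point per library and open symbols at the limit of 3 reads for libraries with no read. The 8 risen pairs stand left, where the resting B libraries are above the pro-B libraries, and the 3 fallen pairs right.

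In resting B over MEF, 2 of the 1172 pairs rose and 1 fell, where 0.369% and 0.385% of all tested Igh pairs did. The 2 were FOR 837 with REV 435 (5.77 ± 0.61, edgeR adjusted p = 0.038) and FOR 850 with REV 499 (3.84 ± 0.48, edgeR adjusted p = 0.042), and the fallen pair was FOR 820 with REV 821, given above. DESeq2 called 18 higher and 17 lower, where it called 6.25% and 7.39% of all Igh pairs, and at an unadjusted edgeR p under 0.05 there were 31 higher and 46 lower, where 8.74% and 12.2% of all Igh pairs were. In pro-B over MEF no pair passed in edgeR, as in the whole locus (0%). There 25 of the flank's pairs were higher and 61 lower at an unadjusted p under 0.05, where 4.99% and 4.17% of all Igh pairs were, and DESeq2 called 3 higher and 17 lower, where it called 1.34% and 1.13% of all Igh pairs. Without pro-B replicate 1, edgeR called 123 higher and 273 lower in pro-B over MEF, where it called 9.55% and 22.7% of all Igh pairs. Without pro-B replicate 2 it called 2 and 4, where it called 1.26% and 0.558% of all Igh pairs. Each of these fits leaves 1 pro-B library, which is taken to vary like the other groups.

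The fit of all 6 libraries shares 1 estimate of the spread, and the pro-B libraries differed most from each other. Fitted with the 4 libraries compared alone, resting B over MEF gave 78 higher and 46 lower pairs of 1108 tested, 7.04% and 4.15%, where 14% and 14.5% of all tested Igh pairs were called. By the split of the flank, which was made after the values were seen, their directions are given as a description. Of 585 tested pairs of an outer fragment with V, 61 were higher and 2 lower (10.4% and 0.342%). Of 451 tested pairs of an inner fragment with V, 2 were higher and 33 lower (0.443% and 7.32%). Each of these shares was below that of all Igh pairs. REV 851 had 11 higher pairs, FOR 850 and REV 840 had 10 each and REV 831 had 9, while REV 810 had 12 lower and FOR 820 had 7. By V region the higher and lower pairs numbered 13 and 10 in far distal, 26 and 11 in near distal, 20 and 9 in middle and 4 and 5 in proximal V. The same fit for resting B over pro-B called no pair. Leaving out MEF replicate 1, MEF replicate 2, resting B replicate 1 or resting B replicate 2 also left no call in the 6-library design in either comparison. The calls of resting B over pro-B numbered 341 higher and 151 lower without pro-B replicate 1, where 28.3% and 18.8% of all Igh pairs were called. Without pro-B replicate 2 they numbered 172 and 102, where 15.2% and 17.3% were called. Those of resting B over MEF numbered 79 higher and 44 lower without pro-B replicate 1 (13.7% and 14.3% of all Igh pairs) and 80 higher and 45 lower without pro-B replicate 2 (13.8% and 14.7%).

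A single pair stood out at long range in all 3 cell types. Whether its reads come from a contact or from the 2 primers themselves was not tested. FOR 165 (114973711 to 114977500) with REV 819, 2315 kb apart and joining the proximal V region to the inner flank, had 16225 and 16643 reads in resting B, 13202 and 78538 in pro-B and 29102 and 19214 in MEF. It made up 33.5% and 29.6% of the reads between the flank and the proximal V region in resting B, 42.7% and 55.3% in pro-B and 54.5% and 37.2% in MEF. Against a model of each library with separation and primer effects, its standardised residuals were 23.1 and 19.2 in resting B, 14.5 and 31.7 in pro-B and 10.7 and 10.1 in MEF. It was the only 1 of the flank's 1205 pairs over 50 kb apart with a residual of at least 2 in both replicates, in each cell type, where 0.914% of all Igh pairs at such distances had one in resting B, 0.374% in pro-B and 0.208% in MEF. The model holds 1 dispersion per library over all Igh pairs, so that pairs with few reads can hardly reach such a residual. The lack of other such pairs is therefore no measure of other contacts.

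Neighbouring pairs had far fewer reads. The other 8 flank partners of FOR 165 had 61 to 730 reads each summed over all 6 libraries, against 172924 for REV 819. The other proximal V partners of REV 819 had 7 to 1819 reads, apart from FOR 126 with 44369. FOR 165 ranked 105 among the V fragments in desert reads. The pair passed the test in no comparison. Its log2 fold was -0.73 ± 0.73 in resting B over MEF (edgeR adjusted p = 0.610), -1.50 ± 0.74 over pro-B (edgeR adjusted p = 0.226) and 0.77 ± 0.73 in pro-B over MEF (edgeR adjusted p = 0.739). Its reads in pro-B replicate 2 were far above those in pro-B replicate 1.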

How the data were processed

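Contacts were measured by 5C in 6 libraries, 2 each of resting B cells, pro-B cells and MEF. Each deposited file lists, for a forward and a reverse primer, the count of read pairs that joined them, without normalisation. Reads were aligned with Novoalign to mm9, per the submitters' processing notes, and the aligner's version was not given in the sources used here. Groups came from the sample labels. Members and lists were chosen with earlier results of these data known.

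Primer pairs reaching 10 reads in 2 or more libraries entered the test, run over the whole Igh table with edgeR 4.0.16 (quasi-likelihood, TMM, R 4.3.3), with Benjamini-Hochberg adjustment over all tested Igh pairs and a threshold of 0.05. Region sums and summed reads of each fragment with the flank were tested likewise. Reads of each fragment with the gene desert were tested with library sizes and TMM factors of their own. DESeq2 1.42.0 was an alternative, and limma 3.58.1 tested regions with each primer pair counted once. Library sizes were also taken from all cis reads or from the reads of pairs within the gene desert. Other alternatives were a lowess correction for distance (span 0.3), no filter and the replicate number as a block. The 4 libraries compared were also fitted alone, and each library was left out in turn. The model for long-range contacts was a quasi-Poisson fit of separation and primer effects per library. The test was checked on simulated counts.

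Named pairs were, per comparison and direction, up to 10 past the threshold in order of p with groups that do not overlap and no fragment used again, the 3 pairs with the highest mean CPM per region, and every pair with a residual of at least 2 in both replicates. Named V fragments were up to 6 per direction in order of p. Every flank fragment was named. P-values measure the spread between the 2 libraries of each group, pooled over all 6 libraries in the main fit. Those of resting B over MEF therefore also carry the spread of the pro-B libraries. A library with no read was set to a limit of 3 reads for bounds, which covers counting error only.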

Additional observations from a re-analysis of the deposited data

How the results depend on the processing

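With 2 libraries per group and a wide spread between the pro-B libraries, counts of calls depended on the libraries fitted. Leaving out 1 library gave, for single pairs, 0 to 80 higher and 0 to 45 lower in resting B over MEF, 0 to 341 and 0 to 151 in resting B over pro-B, and 0 to 123 and 0 to 273 in pro-B over MEF. For V fragments it gave 0 to 39 and 0 to 6, 0 to 47 and 0 to 33, and 0 to 36 and 0 to 9 in these comparisons. The log2 folds of the region sums ranged, for resting B over MEF, from -0.43 to 0.29 (proximal V), 0.48 to 0.70 (middle), 0.50 to 0.75 (near distal), 0.33 to 0.51 (far distal) and 0.11 to 0.64 (flank itself). For resting B over pro-B they ranged from -1.40 to 0.38, -0.45 to 0.86, -0.26 to 0.48, 0.12 to 0.35 and 0.29 to 0.97, and for pro-B over MEF from -0.50 to 1.27, -0.28 to 1.03, 0.14 to 0.88, 0.06 to 0.29 and -0.63 to 0.057, in the same order of regions. The causes of the moves below were not tested.

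DESeq2 called 18 pairs higher and 17 lower in resting B over MEF, 121 and 73 over pro-B, and 3 and 17 in pro-B over MEF. It called 4 V fragments higher over MEF, 14 higher and 6 lower over pro-B, and the near (0.70) and far distal (0.49) sums over MEF. With the 4 libraries compared alone, 78 and 46 pairs were called over MEF, and 0 and 0 over pro-B. The replicate numbers did not pair the libraries (correlations of deviations 0.087 for resting B with pro-B, 0.006 and -0.028 for the other pairs of groups), and the fit with the replicate number as a block gave 0 and 0 pairs over MEF, 2 and 5 over pro-B, and 13 V fragments higher over pro-B. Distance correction gave 5 and 3 pairs over MEF, 34 lower over pro-B, 0 and 0 V fragments, sums of the flank itself of 1.23 over MEF and 1.27 over pro-B (both past the threshold), and turned the middle (-1.14) and near distal (-0.60) sums over pro-B. Total cis reads as library size gave 3 lower pairs over MEF and 36 higher over pro-B, 1 V fragment higher over MEF, 4 higher and 0 lower over pro-B, flank sums of 0.64 and 0.92 past the threshold, and a proximal sum over MEF of 0.19, turned. Reads within the desert as library size gave 5 and 2 pairs over MEF, 42 higher over pro-B and 0 and 0 V fragments. They also gave flank sums of 0.89 and 0.98 past the threshold, and a proximal sum over MEF of 0.45, turned. Without the filter 2 pairs were lower over MEF.

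With each primer pair counted once, sums in pro-B over MEF turned to -0.12 (proximal), -0.020 (middle), -0.048 (near distal) and -0.14 (far distal), those of the proximal region to 0.091 over MEF and 0.21 over pro-B in resting B, and the near distal sum over pro-B passed at 0.28 (limma). Without the pair with the most reads the proximal sum over MEF was 0.29 and the flank itself -0.19 over MEF and -0.058 over pro-B. Among reads with V partners only, the proximal region held 29.4% in resting B, 40.1% in pro-B and 39.1% in MEF, the middle 19.4%, 15.7% and 16.2%, the near distal 26.8%, 23.2% and 21.6%, and the far distal 24.5%, 21.1% and 23.0%. Of the 14 calls on named pairs, 14 held under DESeq2, both other scalings, no filter and without either pro-B library, 13 under distance correction, 4 with the block, 3 with the 4 libraries alone, and 0 without any MEF or resting B library. Of the 9 named V fragments, 9 held under DESeq2, the block and without either pro-B library, 2 without MEF replicate 1, 1 with total cis reads and 0 under the other alternatives run. None of these named results turned its direction.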

Other observations

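FOR 817, an inner flank fragment, was read with a single primer of the chromosome 5 gene desert far more than any other flank fragment was. That desert primer, REV 31, held 99.5% to 99.9% of the desert reads of FOR 817 in the 6 libraries. All desert reads of FOR 817 made up 57.7% and 55.2% of the interchromosomal reads in resting B, 60.1% and 41.3% in pro-B and 83.3% and 76.4% in MEF. MEF lay above the other cell types in both libraries.

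FOR 556, a near distal V fragment, was in 3 of the 13 pairs that fell in resting B over pro-B, with REV 810, REV 821 and REV 827. With REV 821 it had 34 and 10 reads in resting B, 249 and 242 in pro-B and 133 and 269 in MEF. With REV 827 it had 13 and 7 reads in resting B, 132 and 133 in pro-B and 86 and 166 in MEF. In both pairs, chosen after their values were seen, resting B lay below all other libraries.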
